A study of Mus musculus with 11 samples.

Results

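Fibro 3 is the name of a fibroblast cluster of the study. No cell annotation was used here, and members were chosen from the count matrices with a separate rule on genes of mesangial cells and pericytes, among them soluble guanylate cyclase and the angiotensin II receptor, which is not the study's definition of the cluster and may pick other cells. A barcode was kept when it held at least 1000 UMIs (unique molecular identifiers, 1 per captured transcript), at least 200 genes and at most 30% mitochondrial UMIs. A kept barcode was called Fibro 3-like when it had a UMI for at least 3 of 7 positive genes (*Gucy1a3*, *Gucy1b3*, *Agtr1a*, *Itga8*, *Serpine2*, *Notch3* and *Pdgfrb*). It also had to have fewer than 3 of 6 matrix fibroblast genes (*Lum*, *Dpt*, *Col14a1*, *Fbln1*, *Mmp2* and *Clec3b*), fewer than 2 of 5 smooth muscle genes (*Myh11*, *Pln*, *Lmod1*, *Cnn1* and *Actg2*), and none of *Ptprc*, *Pecam1* and *Cdh5*, which mark leukocytes and endothelium. Members were thus chosen by detection of these genes, which are described below and not tested. In all, 523 of 34828 kept barcodes were members. Of these, 118 came from 9641 control barcodes, 168 from 14041 UIR barcodes and 237 from 11146 UUO barcodes.

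Mesangial cells sit between the capillary loops of the glomerulus, hold the tuft together through their own matrix, and contract or relax under angiotensin II and nitric oxide, the latter acting through soluble guanylate cyclase. Pericytes wrap the capillaries between the tubules, depend on platelet-derived growth factor receptor β, and have been traced as a source of matrix-producing myofibroblasts in scarred kidneys. Both are related by descent to the renin cells and smooth muscle of the afferent arteriole, which take up or give up renin expression with the demand for it.

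The study profiled the left kidney of male C57Bl/6 mice in 2 models of fibrosis, with animals operated on at 10 weeks of age and kidneys taken at day 28. UIR, unilateral ischemia-reperfusion, was a 30 min clamp of the left renal pedicle, and UUO, unilateral ureteral obstruction, was a permanent ligation of the left ureter. Naive kidneys of mice of the same age and strain were the controls, with no sham operation named. There were 3 UIR, 3 UUO and 5 control libraries of single-cell 3′ RNA sequencing, each from whole kidney dissociated in the cold. The p-values measure the spread between these libraries.

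The libraries held 49503312 to 117043590 UMIs in all, and the members' median UMI count per library ran from 4194 to 8563. Their median mitochondrial share moved with the groups, with 8.04 to 16.7% of UMIs for the controls, against 7.55 to 9.42% for UIR and 6.03 to 7.16% for UUO. The labels place the controls in 3 series (Ctrl, N1 and N2, AN1 and AN2) and give no such series for the injured libraries, so that series and injury cannot be told apart. Pairs of libraries shared 0 to 10 barcodes, and 0 barcodes were members in 2 libraries. One UIR library, the one with no number in its label, stood apart from UIR1 and UIR2 in the genes of mesangial cells given below, so that values are given by library for the genes described in most detail. The transcripts of proximal tubule, which leak into all droplets of a kidney suspension, moved with the groups: 10 of their markers summed to 1039 to 8916 CPM (counts per 1000000 UMIs) in control members, 649 to 1975 in UIR members and 352 to 494 in UUO members.

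The label was first checked against marker genes. Of 6 mesangial markers, 5 were seen in a larger share of control members than of control endothelial barcodes. Of 10 pericyte markers, the 3 narrow ones *Kcnj8*, *Abcc9* and *Higd1b* were rare in control members, though each was seen more often there than in endothelial barcodes. *Sfrp2*, a secreted Wnt modulator, and *Ptn*, a heparin-binding growth factor, each had a UMI in 95.8% of the 118 control members, against 0.668% and 1.84% of the control endothelial barcodes, whose median depth per library (4301 to 5657 UMIs) was near that of the members (4635 to 6116 UMIs). *Gata3*, a transcription factor needed for the mesangium, was seen in 85.6% against 0.835% of endothelial barcodes, and *Hopx* in 81.4% against 0.167%. *Piezo2*, a stretch-gated channel, was less specific, at 61.9% against 22.9%, and *Mef2c*, a transcription factor that endothelium also uses, was at 54.2% against 76.8%. Of the pericyte markers, *Kcnj8*, a subunit of a potassium channel, was seen in 3.39% of control members against 1.84% of endothelial barcodes, and its partner *Abcc9* in 10.2% against 0.668%. *Higd1b* was seen in 5.93% against 0%, *Cox4i2* in 16.9% against 0.334% and *Rgs5* in 28% against 1.50%. *Cspg4* and *Ndufa4l2*, which pericytes share with other mural cells, reached 55.1% and 66.1%, against 0.501% and 0%, and *Mcam* 61.0% against 28.9%. Among interstitial fibroblast markers, *Pdgfra* was seen in 66.9% of control members against 0% and *Nt5e* in 81.4% against 4.17%, whereas *Dcn* was seen in 2.54% against 0.167% and *Col1a1* in 0% of both. The sum of 10 pericyte markers was 1561 to 2277 CPM in control members and 62.3 to 110 in control endothelial barcodes. That list holds *Pdgfrb*, with a mean of 862 CPM in control members, and *Notch3*, both positive genes of the rule. Endothelial barcodes had to have fewer than 3 positive genes, so the selection shapes the difference in this sum. *Kcnj8*, *Abcc9* and *Higd1b* were thus rare while other genes of the pericyte list were not, and the cells are called Fibro 3-like throughout, after the rule.

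The genes with the highest ratio of members to all other barcodes, a description that the rule shapes, were led by the non-coding *Gm26771* at 321-fold, *Sfrp2* at 238-fold and *Ptn* at 139-fold. The ratio uses the mean over all 11 libraries, although the group means differed, at 606, 75.0 and 223 CPM in control, UIR and UUO members for *Gm26771* and at 3546, 1257 and 1889 CPM for *Ptn*. They also held *Art3*, an ADP-ribosyltransferase, at 124-fold, *Adamts5*, a protease of proteoglycans, at 65.7-fold, and *Des*, the muscle intermediate filament desmin, at 64.1-fold. *Mrc1*, the mannose receptor best known from macrophages, was chosen after its values were seen: it had a UMI in 76.3% of control members and in 0 endothelial barcodes, while the macrophage gene *C1qa* had one in 1 of 118. *Mrc1* was seen in 23.2% of UIR members and 47.7% of UUO members. The rule's own genes, given as a description, were lower in UIR in *Pdgfrb* (862 ± 115 CPM in controls, 577 ± 105 in UIR and 867 ± 280 in UUO; SD over libraries), with 463 to 670 CPM in the UIR libraries against 728 to 973 in the controls, and differed more in *Agtr1a* (740 ± 207, 161 ± 160 and 382 ± 170) and in *Itga8*, the integrin that binds nephronectin, which ran from 1196 to 1744 CPM in the controls, from 86.4 to 516 in UIR and from 404 to 948 in UUO. Exactly 3 positive genes were found in 71 members (7 control, 37 UIR and 27 UUO), and 266 barcodes with 2 of them lay just outside the rule (85, 113 and 68).

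A smaller share of injured than of control members carried the mesangial markers. Of 6 mesangial markers that the rule did not use (*Gata3*, *Ptn*, *Sfrp2*, *Hopx*, *Mef2c* and *Piezo2*), at least 3 were found in 112 of 118 control members (94.9%), in 78 of 168 UIR members (46.4%) and in 161 of 237 UUO members (67.9%). The share in UIR came mostly from the unnumbered library, with 53 of 65 members (81.5%), against 15 of 69 in UIR1 (21.7%) and 10 of 34 in UIR2 (29.4%). The order of the groups was unchanged when each barcode was thinned to 1000 UMIs, with 72.9%, 27.4% and 47.7%. Under 3 of the markers were found in 6 control, 90 UIR and 76 UUO members.

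**Figure D1:**
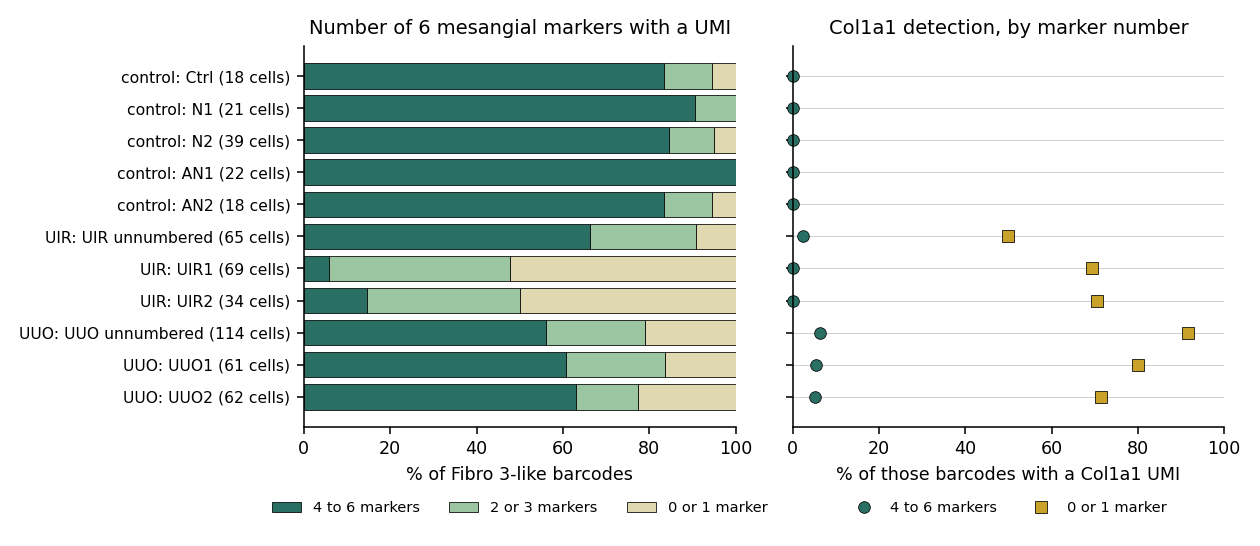
Left, percent of the Fibro 3-like barcodes of each library with 4 to 6, 2 or 3, and 0 or 1 of the 6 mesangial markers, and right, percent of the barcodes with 4 to 6 and with 0 or 1 markers that had a *Col1a1* UMI. At least 4 markers were found in 104 of 118 control members, 43 of 65 in the unnumbered UIR library and 4 of 69 in UIR1, and *Col1a1* was detected mainly where markers were few.

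*Sfrp2* was 4105, 4044, 2251, 2947 and 2757 CPM in the pooled members of the control libraries Ctrl, N1, N2, AN1 and AN2. It was 1575, 109 and 186 CPM in the unnumbered UIR library, UIR1 and UIR2, and 1006, 967 and 1028 CPM in the unnumbered UUO library, UUO1 and UUO2. All injured libraries lay below all controls, the unnumbered UIR library nearest to them. *Sfrp2* fell by 2.32 ± 0.57 in UIR (log2 fold change ± SE; adjusted p = 0.00843, edgeR quasi-likelihood test), and the difference in UUO, −1.71 ± 0.55, missed the threshold (adjusted p = 0.0605). *Ptn* fell by 1.43 ± 0.31 in UIR (adjusted p = 0.00318) and differed by −0.94 ± 0.30 in UUO (adjusted p = 0.0557). *Gata3* fell by 1.93 ± 0.53 in UIR (adjusted p = 0.0173), and *Hopx* fell by 1.78 ± 0.59 (adjusted p = 0.0483), whereas neither passed the test in UUO (adjusted p = 0.489 and 0.607). *Mef2c* and *Piezo2* passed in neither comparison. The *Gata3* call was lost without UIR1 or UIR2, with an adjusted p of up to 0.085, and that of *Hopx* without any 1 of 7 libraries, with up to 0.194.

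The first comparison asked whether injury changed how many such cells were captured. Fibro 3-like barcodes made up 0.827%, 1.22%, 2.10%, 1.16% and 0.907% of the kept barcodes of the control libraries Ctrl, N1, N2, AN1 and AN2. The share was 1.96%, 1.12% and 0.742% in the unnumbered UIR library, UIR1 and UIR2, and 3.03%, 1.46% and 1.94% in the unnumbered UUO library, UUO1 and UUO2. The unnumbered UIR library, UIR1, UUO1 and UUO2 lay within the range of the controls, UIR2 lay below it and the unnumbered UUO library above it. The mean share was 1.24% ± 0.505 in controls (SD, n = 5), 1.28% ± 0.625 in UIR (n = 3) and 2.14% ± 0.805 in UUO (n = 3). The difference was 0.0342 percentage points for UIR minus control (exact permutation p = 0.929, two-sided; 0.929 adjusted over 3 comparisons) and 0.901 points for UUO minus control (exact permutation p = 0.107, adjusted 0.321), and it was 0.867 points for UUO minus UIR (exact permutation p = 0.3, adjusted 0.45). With at most 15% mitochondrial UMIs the difference for UUO minus control was only 0.0514 points (2.23% against 2.18%, exact permutation p = 1) and that for UIR minus control −0.706 points. The smallest p possible is 0.0357 for 5 against 3 libraries and 0.1 for 3 against 3.

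Among stromal barcodes the picture was different. Members were 51.4%, 58.3%, 81.3%, 71.0% and 54.5% of all barcodes that passed the Fibro 3-like rule, a matrix fibroblast gate or a smooth muscle gate in the controls, against 37.8%, 25.7% and 14.4% in UIR and 39.9%, 32.6% and 37.1% in UUO. No injured library reached the lowest control. The difference from controls was −37.4 points for UIR and −26.8 points for UUO (exact permutation p = 0.0357 for each, the smallest possible, adjusted 0.0536 over 3 comparisons). The matrix gate held 4 control, 200 UIR and 244 UUO barcodes in all, and the smooth muscle gate held 61, 309 and 159. The part of either gate in this share was not tested. The direction of the plain share also depended on what it was divided by: of barcodes with fewer than 4 proximal tubule markers, members were 4.27% ± 1.16 in controls, 1.50% ± 0.753 in UIR and 2.23% ± 0.799 in UUO. Proximal tubule markers at 4 or more were found in 53 control, 57 UIR and 1 UUO members. Without members carrying 4 such markers or 2 podocyte markers, the UUO minus control difference in the plain share was 1.39 points (exact permutation p = 0.0357, adjusted 0.107). For UIR minus control it was 0.110 points (exact permutation p = 0.679). Why the differences moved was not tested.

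**Figure D2:**
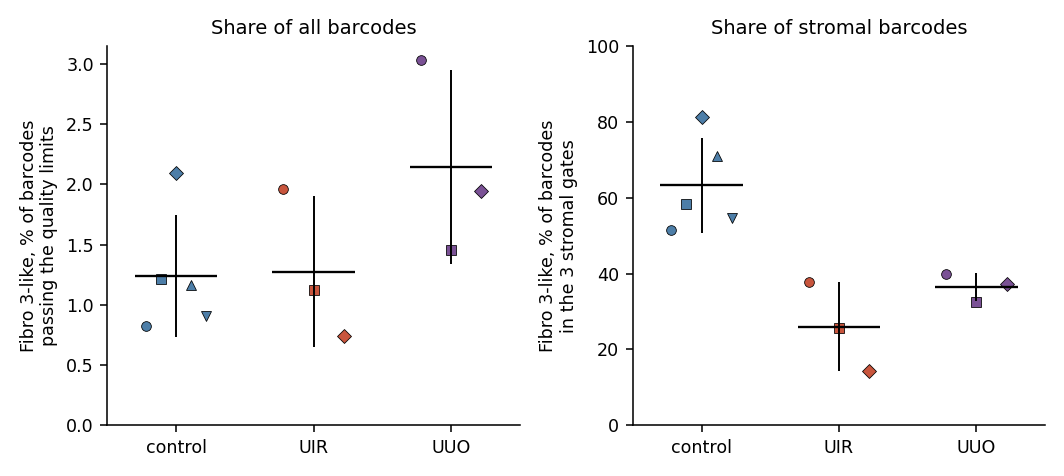
Fibro 3-like barcodes as a percent of kept barcodes and as a percent of the stromal barcodes, each point a library, each horizontal line a group mean and each vertical line ± 1 SD. The groups overlap in the first share, and in the second all 6 injured libraries lie below the 5 controls.

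To compare expression, the counts of all members of a library were added up, so a difference can come from a change within cells or from another mix of cells among the members, which these sums cannot tell apart. Of 6431 genes tested, 645 were higher in UIR than in control members (10%) and 395 were lower (6.14%). In UUO 449 were higher (6.98%) and 189 lower (2.94%). Together these were 16.2% of genes in UIR and 9.92% in UUO. Counts on the gene lists below are to be read against these shares of all genes, and some lie near them. The UIR and UUO comparisons share their 5 control libraries. Of the higher genes, 161 in UIR (25%) and 182 in UUO (40.5%) were under 2 times their level in empty droplets, the free RNA of the suspension, as were 27 of the lower genes in UIR (6.84%) and 77 in UUO (40.7%). In DESeq2, 964 and 602 genes were called, 946 and 575 of them shared with the edgeR calls. With a limit of 15% mitochondrial UMIs 762 genes were called for UIR and 366 for UUO, 733 and 348 of them shared with the main calls. The fit was also run in other settings, with other filters on barcodes, genes and members and without a whole series of controls, and calls that only these ended are named beside the genes. Calls ended in members with at least 3 or 4 mesangial markers are not counted among these other settings and are given with those members.

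Extracellular matrix was the list with the most called genes. Of 54 matrix genes tested, 38 rose and 3 fell in UIR, and 39 rose and 2 fell in UUO, with a median log2 fold change of 2.81 and 2.99 against 0.01 and 0.00 over all genes. With genes that had no UMI in control members set at their bound, the UIR median was 2.74. The shares of matrix genes that fell, 5.56% in UIR and 3.70% in UUO, were near those of all genes (6.14% and 2.94%). *Col1a1*, the α1 chain of type I collagen (chr11:94936224-94953042 on GRCm38, plus strand), had 0 UMIs in the 5 control libraries. It was 1153, 2259 and 1077 CPM in the UIR libraries and 1449, 1222 and 1419 CPM in the UUO libraries. Every injured library was thus far above controls in which 0 of 118 members had a UMI, which allows up to 2.54% of members with one and sets no limit on members that express the gene below detection, and *Col1a1* had one in 49.4% of UIR and 34.6% of UUO members, against 1.56% and 3.38% of endothelial barcodes. The median depth per UIR library was 4432 to 8563 UMIs in members and 4206 to 5114 in endothelial barcodes, and the UUO depths are given with *Ren1*. *Col1a1* rose at least 349-fold in UIR (adjusted p = 5.01e-08) and at least 309-fold in UUO (adjusted p = 9.56e-08), where the bound sets the controls at 3 UMIs over the group. Intervals and bounds of this kind cover counting error only.

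*Col3a1*, of type III collagen, had 3 or fewer UMIs in control members and rose in both models, with a UIR to control ratio of pooled levels of 483 (95% interval 133 to 3988) and a UUO to control ratio of 434 (120 to 3583). *Fn1*, fibronectin, was at 0 in every control library and at 184, 811 and 466 CPM in UIR and 632, 558 and 538 CPM in UUO, and rose at least 111-fold (adjusted p = 9.3e-06) and 132-fold (adjusted p = 1.23e-05). *Col6a1*, of the type VI collagen around cells, rose at least 56.8-fold and 45.1-fold. *Timp1*, an inhibitor of matrix proteases, was 754, 809 and 227 CPM in UIR and 264, 160 and 63.7 CPM in UUO from 0 in the controls, and rose at least 143-fold and 42.4-fold. *Mgp*, an inhibitor of calcification, and *Dcn*, the proteoglycan decorin, were described after their values were seen. *Mgp* was 154 to 295 CPM in the controls, 10740, 26803 and 34295 CPM in UIR and 15934, 18028 and 6681 CPM in UUO, and rose by 6.79 ± 0.41 (adjusted p = 7.11e-09) and 5.83 ± 0.40 (adjusted p = 5.07e-08). *Dcn* rose by 7.22 ± 0.40 and 6.56 ± 0.41. *Nid2*, a basement membrane linker, fell in UIR, and so did the proteases *Adamts1* and *Adamts5* in both models. *Adamts1* was 568 to 954 CPM in controls against 131, 74.1 and 195 CPM in UIR and 181, 206 and 283 CPM in UUO, without overlap. It fell by 2.32 in UIR (adjusted p = 2.7e-05) and by 1.68 ± 0.27 in UUO (adjusted p = 0.000494). *Adamts5* fell by 2.60 ± 0.43 in UIR and by 1.42 ± 0.41 in UUO (adjusted p = 0.000436 and 0.0321), the latter lost without any 1 of 5 libraries (adjusted p of up to 0.137). The chains of type IV collagen, the main collagen of mesangial matrix, passed in neither model (*Col4a1* −0.22 in UIR and −0.23 in UUO, adjusted p = 0.657 and 0.682).

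**Figure D3:**
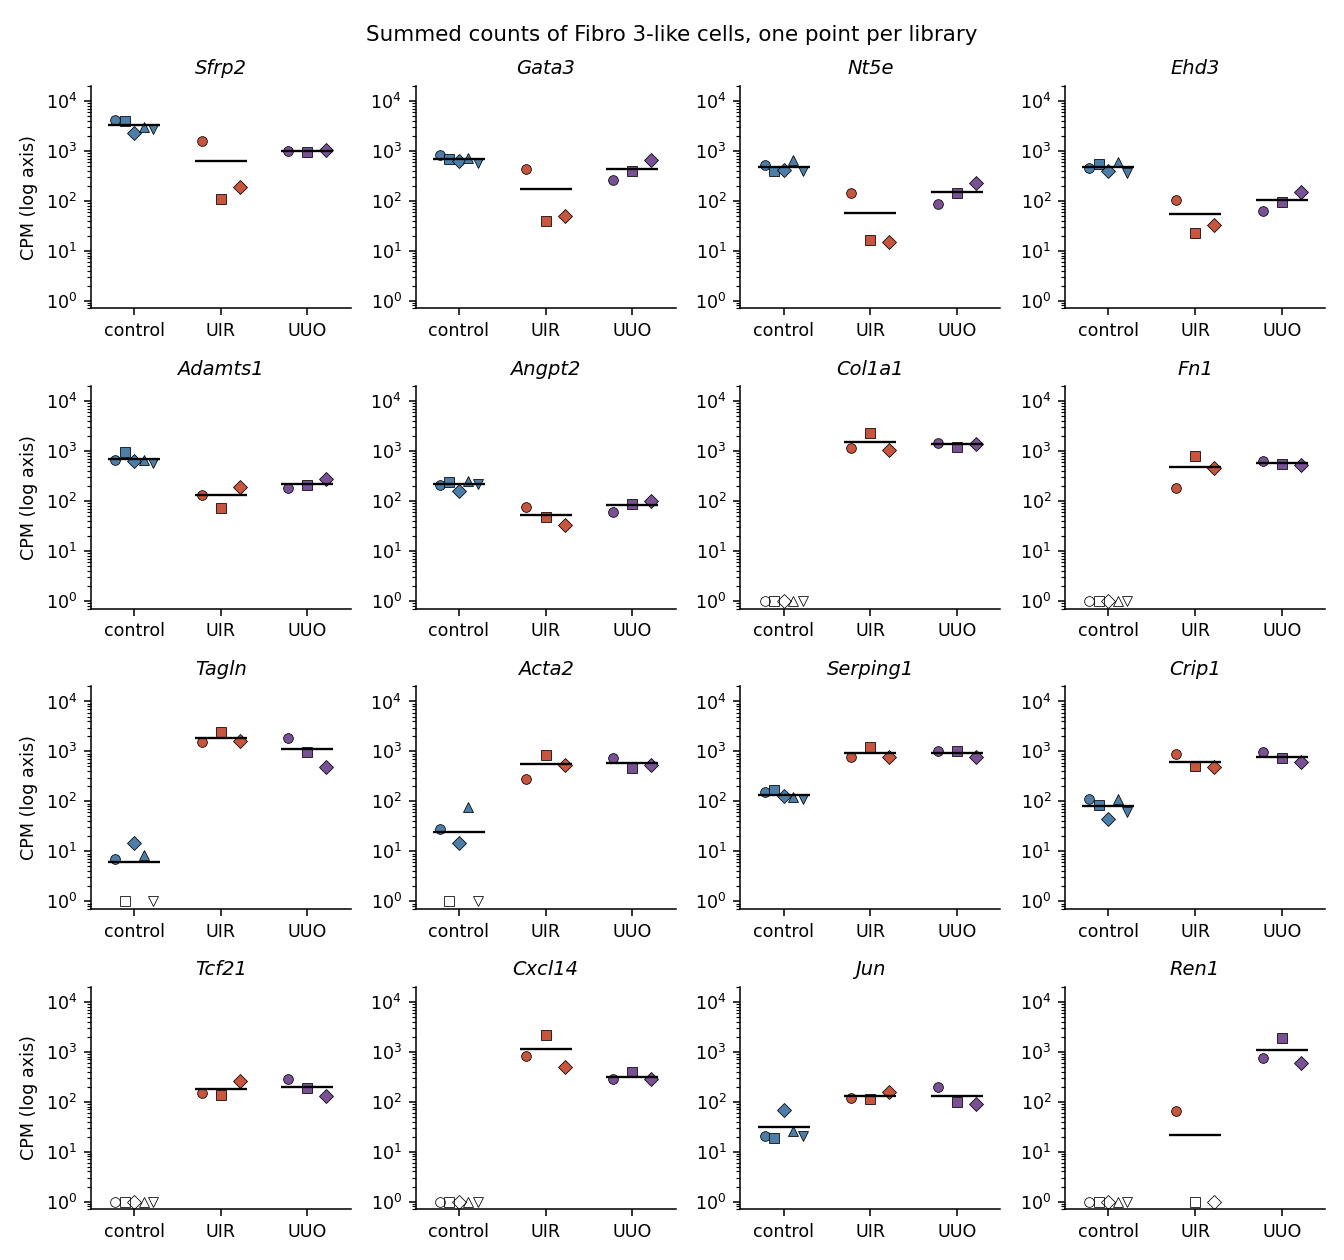
Level of 16 genes in the pooled Fibro 3-like barcodes of each library, in CPM on a log axis, with open symbols for libraries under 1 CPM and a line for the mean of a group. *Col1a1* and *Fn1* are at 0 in all 5 controls and above 100 CPM in all injured libraries, *Ren1* is above 600 CPM only in the 3 UUO libraries, and *Nt5e* and *Ehd3* are highest in the controls.

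Contractile and cytoskeletal genes went both ways in UIR. Of 30 tested, 11 rose and 7 fell in UIR and 9 rose and 1 fell in UUO. *Tagln*, transgelin of smooth muscle and myofibroblasts (chr9:45929619-45936058, minus strand), was 6.86, 0, 14.5, 8.59 and 0 CPM in the controls, 1540, 2459 and 1641 CPM in UIR and 1856, 967 and 488 CPM in UUO. *Acta2*, smooth muscle α-actin (chr19:34241090-34255590, minus strand), was 27.5, 0, 14.5, 77.3 and 0 CPM in the controls, 278, 864 and 534 CPM in UIR and 733, 475 and 538 CPM in UUO. Neither gene overlapped between control and injured libraries, which held for 18.6% of all tested genes in UIR and 15.1% in UUO. *Tagln* rose by 8.03 ± 0.54 in UIR (adjusted p = 2.74e-08) and by 7.15 ± 0.55 in UUO (adjusted p = 1.76e-07), and *Acta2* by 4.64 ± 0.54 and 4.56 ± 0.54 (adjusted p = 1.73e-05 and 2.65e-05). *Crip1*, a LIM-domain protein of smooth muscle, rose by 3.03 ± 0.29 and 3.23 ± 0.29, although its UUO level of 769 CPM was near that of empty droplets at 625 CPM. The actin cross-linker *Actn1* rose by 1.86 ± 0.35 and 1.93 ± 0.35, and *Csrp2* by 3.08 ± 0.48 in UIR and 1.84 ± 0.51 in UUO, the UUO call being lost without any 1 of 5 libraries (adjusted p of up to 0.207). The genes that fell in UIR were *Myl9*, *Des*, *Actn4*, *Mylk*, *Myh10*, *Vcl* and *Sorbs2*, which belong to the contractile machinery and its anchors. *Des* fell by 1.19 ± 0.26 (adjusted p = 0.00378) and did not pass in UUO (−0.69 ± 0.26, adjusted p = 0.11), where *Actn4* alone fell.

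Genes of vasoactive signalling fell more often than they rose in UIR. Of 20 tested, 3 rose and 7 fell in UIR, and 4 rose and 1 fell in UUO. *Rgs2*, which damps signalling from the angiotensin II receptor, was 506 to 1054 CPM in controls and 245, 41.1 and 56.1 CPM in UIR, and fell by 2.66 ± 0.48 (adjusted p = 0.000754). In UUO it was 216, 638 and 565 CPM and overlapped the controls. The other genes that fell in UIR were *Prkg1* and *Pde5a* of the cyclic GMP pathway, the prostaglandin receptor *Ptger4*, the channels *Trpc4* and *Ano1*, and *Gja5*, a connexin of the juxtaglomerular apparatus, by 1.93 ± 0.56. *Trpc4* fell in UUO too, by 1.36 ± 0.39. *Rgs5*, a marker of pericytes, rose by 1.63 ± 0.45 in UIR and by 2.31 ± 0.44 in UUO (adjusted p = 0.0175 and 0.00207), from 37.8 to 206 CPM in the controls to 153, 298 and 331 CPM in UIR, which overlapped them, and 490, 218 and 668 CPM in UUO. The phosphodiesterase *Pde1a* rose by 1.62 ± 0.47 and 1.67 ± 0.46, and *Ednrb*, the endothelin B receptor, rose at least 7.18-fold and 6.74-fold. The fourth gene that rose in UUO was *Ren1*, given with the comparison of the models. Leaving out 1 library ended the calls of *Rgs5* and *Gja5* in UIR, of *Trpc4* and *Ednrb* in UUO and of *Pde1a* in both, with adjusted p of up to 0.0737, 0.102, 0.138, 0.065, 0.0592 and 0.0907 in that order. In members with at least 3 mesangial markers *Rgs5* differed by −0.17 in UIR (adjusted p = 0.928) and by 1.79 in UUO (adjusted p = 0.0817), whereas in those with at least 4 it rose by 1.39 ± 0.32 in UUO (adjusted p = 0.00901) and differed by 0.25 in UIR. *Gja5* differed by 0.13 in UIR in the latter, and the *Ednrb* call in UIR was lost in 4 other settings (adjusted p of up to 0.0792).

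Genes of the PDGF and TGF-β pathways, which drive mural cell growth and scarring, were called in both directions. Of 31 tested, 11 rose and 5 fell in UIR and 9 rose and 3 fell in UUO. The latent TGF-β binding proteins *Ltbp2*, at least 67.5-fold and 27-fold, and *Ltbp4*, by 4.42 ± 0.53 and 4.33 ± 0.53, rose in both models, and so did *Inhba*, the activin A subunit, at least 29.4-fold and 18-fold. *Tgfbi*, a matrix protein induced by TGF-β, had 3 or fewer UMIs in control members and rose with a ratio of 31.5 (5.45 to 1266) in UIR and 34.7 (6.06 to 1386) in UUO, and *Ltbp1* rose in UIR with a ratio of 23.7 (4.04 to 955), lost without any 1 of 5 libraries (adjusted p of up to 0.0856). The *Tgfbi* calls were each lost in 1 other setting (adjusted p = 0.0649 and 0.0529). *Tgfb2* rose by 2.24 ± 0.62 in UUO (adjusted p = 0.0272), a call lost without any 1 of 4 libraries (adjusted p of up to 0.139). *Ctgf*, the connective tissue growth factor CCN2, was 3768 ± 1031 CPM in controls, 908 ± 114 in UIR and 1595 ± 366 in UUO, and fell by 1.97 ± 0.25 (adjusted p = 4.62e-05) and 1.27 ± 0.24 (adjusted p = 0.00232). *Pdgfd*, a ligand of PDGFRβ, and the TGF-β co-receptor *Eng* fell in both models, and *Pdgfb* and the receptor *Acvrl1* fell in UIR. *Pdgfra* differed by −0.15 in UIR and 0.09 in UUO and did not pass (adjusted p = 0.791 and 0.904).

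Notch and Wnt genes rose in part. Of 7 Notch pathway genes tested, 3 rose in UIR and 2 in UUO. They were the ligand *Jag1*, by 3.12 ± 0.62 and 2.73 ± 0.63, the effector *Heyl*, by 1.91 ± 0.33 and 1.47 ± 0.34, and *Nrip2*, which had 3 or fewer UMIs in control members, with a ratio of 10.5 (2.73 to 89.8) in UIR. *Heyl* was 17.2 to 30.4 CPM in controls, 67.8, 74.1 and 118 CPM in UIR and 77.7, 55.5 and 69.3 CPM in UUO, without overlap, whereas the receptor of the rule, *Notch3*, was 100 ± 15.3, 115 ± 29.7 and 114 ± 35.4 CPM. The call of *Jag1* in UUO was lost without the unnumbered UUO library (adjusted p = 0.0643) and that of *Nrip2* without any 1 of 6 libraries (adjusted p of up to 0.098). Of 15 Wnt genes, 7 rose and 2 fell in UIR and 8 rose in UUO. *Wnt4*, a ligand induced in kidney scarring, had 3 or fewer UMIs in control members and was 155, 333 and 127 CPM in UIR and 172, 181 and 147 CPM in UUO, a ratio of 72.6 (19.9 to 602) and 57 (15.6 to 473). The inhibitors *Sfrp1*, with a ratio of 110 (30.2 to 910) and 84 (23.1 to 696), and *Dkk3*, at least 23.7-fold and 24.8-fold, rose, as did the feedback inhibitor *Nkd1*, at least 13.1-fold and 11.7-fold. The receptor *Fzd1* rose by 3.22 ± 0.48 in UIR, and *Wnt5a* rose in UUO with a ratio of 14.5 (3.85 to 122). The 2 that fell in UIR were *Sfrp2* and *Dkk2*, so one secreted inhibitor of the pathway fell while its relative rose. In UUO the *Heyl* call was lost in 2 other settings (adjusted p of up to 0.0747) and that of *Wnt5a* in 1 (adjusted p = 0.0717).

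Angiogenic and guidance genes were called in both directions. Of 13 angiogenic ligands and receptors, 2 rose (15.4%, against 10% of all genes) and 4 fell (30.8%, against 6.14%) in UIR. In UUO 1 rose (7.69%, near the 6.98% of all genes) and 2 fell (15.4%, against 2.94%). *Angpt2*, the ligand that loosens the contact of endothelium and mural cells, was 159 to 258 CPM in controls, 76.5, 47.3 and 32.5 CPM in UIR and 59.8, 88.5 and 99.8 CPM in UUO. It fell by 1.93 ± 0.28 (adjusted p = 0.000129) and 1.44 ± 0.26 (adjusted p = 0.00151). Its receptor *Tek* fell by 2.69 ± 0.55 and 1.68 ± 0.48, the latter lost without any 1 of 5 libraries (adjusted p of up to 0.132), and in UIR *Fgf1* fell by 1.64 ± 0.28 and the VEGF co-receptor *Nrp1* by 1.59 ± 0.29. The sum of 7 endothelial markers in the members moved with these genes, from 821 to 979 CPM in controls to 257 to 402 in UIR and 340 to 388 in UUO, and its part in the result was not tested. It was made up mostly of *Ehd3*, described with the genes outside the lists, and *Plvap*, at 321 to 419 CPM in controls, against 62.0 to 195 in UIR and 134 to 169 in UUO. *Pecam1* and *Cdh5* were at 0 by the rule, *Kdr* had 0, 2 and 4 UMIs in control, UIR and UUO members, *Adgrl4* was at most 8.23 CPM in any library, and *Emcn* was 60.1 to 101, 103 to 160 and 94.2 to 148 CPM. *Calcrl* rose in UIR. *Ramp1*, its partner in the CGRP receptor, rose at least 2.45-fold and 12.1-fold, at or near its level in empty droplets, and the UIR call was lost without any 1 of 7 libraries (adjusted p of up to 0.14). Of 26 guidance genes, 4 rose and 10 fell in UIR and 3 rose and 3 fell in UUO. *Sema3d* rose at least 35.2-fold and 14.2-fold, the adhesion molecule *Ncam1* at least 29.6-fold and 19-fold, and the cytoskeletal regulator *Dpysl3* by 3.41 ± 0.40 and 3.16 ± 0.40. *Slit2* rose in UIR with a ratio of 44.2 (7.71 to 1765) over 3 or fewer control UMIs. *Nrxn3*, a synaptic adhesion gene, fell by 3.36 ± 0.57 and 2.02 ± 0.46, and in UUO the ephrin receptor *Epha3* fell by 1.33 ± 0.40, and the netrin receptor *Unc5b* was the third gene that fell. The UUO calls of *Nrxn3* and *Epha3* were lost without the unnumbered UUO library or UUO1 (adjusted p of up to 0.0723 for *Nrxn3* and 0.182 for *Epha3*), and that of *Epha3* without any 1 control library too.

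Chemokine and complement genes rose in part, and few interferon genes were called. Of 18 genes of chemokines, cytokines and adhesion, 8 rose in UIR and 5 in UUO. *Cxcl14* was at 0 in the controls, 818, 2136 and 496 CPM in UIR and 283, 391 and 280 CPM in UUO, and rose at least 277-fold (adjusted p = 2.17e-06) and 70.6-fold (adjusted p = 7.44e-05). The leukocyte and progenitor attractant *Cxcl12* rose at least 27.9-fold and 25.9-fold and the alarmin *Il33* at least 13.3-fold and 12.8-fold. *Tnfsf13b*, the B cell factor BAFF, rose with a ratio of 32.6 (5.64 to 1308) and 26 (4.5 to 1044) over 3 or fewer control UMIs. *Cx3cl1* rose by 2.02 ± 0.55 and 2.03 ± 0.54, calls that were lost without any 1 of 2 and 5 libraries (adjusted p of up to 0.101 and 0.0788). The UUO calls of *Il33* and *Tnfsf13b* were lost in 4 and 3 other settings (adjusted p of up to 0.0812 and 0.0777), among them the controls without N1 and N2 or without AN1 and AN2. Of 6 complement genes, 3 rose in UIR and 5 in UUO. *Serping1*, the C1 inhibitor, was 151, 170, 130, 120 and 112 CPM in controls, 785, 1249 and 782 CPM in UIR and 1021, 1025 and 762 CPM in UUO. The lowest injured library was thus well above the highest control, and *Serping1* rose by 2.88 ± 0.24 (adjusted p = 3.09e-07) and 2.75 ± 0.24 (adjusted p = 7.52e-07). In UUO the C1 proteases *C1ra* and *C1s1* rose by 1.93 ± 0.42 and 0.84 ± 0.24, the latter lost without any 1 of 6 libraries (adjusted p of up to 0.0863) and the former without N1 and N2 together (adjusted p = 0.0529). *Clu*, an injury gene of tubules, rose too but was under its level in empty droplets in both models (626 against 850 CPM in UIR and 171 against 1131 CPM in UUO), and its UUO call was lost without any 1 of 5 libraries (adjusted p of up to 0.41) and its UIR call without members carrying tubule or podocyte markers (adjusted p = 0.114). Of 32 genes of interferon response and MHC class I, edgeR called 0 higher in either model, with 4 higher at an unadjusted p under 0.05 in each and 0 by DESeq2. *Bst2*, an interferon-induced membrane protein, fell in UIR by 0.80 ± 0.23, lost without Ctrl or UIR2 (adjusted p of up to 0.132). The sum of 8 macrophage markers moved with these genes, from 0 to 25.8 CPM in control members to 301 to 979 in UIR and 247 to 856 in UUO, where empty droplets held 3063 to 4010 and 8776 to 10408 CPM, and its part in the result was not tested.

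Of 15 immediate early genes, which answer stimuli and dissociation within minutes, 7 rose and *Dusp1*, a phosphatase of MAP kinases, fell in UIR, and 6 rose in UUO. *Klf4* rose at least 17.7-fold and 13.2-fold, *Egr1* by 4.10 ± 0.62 and 3.12 ± 0.66, *Ier3* by 2.92 ± 0.56 and 2.18 ± 0.58, *Jun* by 1.96 ± 0.41 and 1.91 ± 0.40 and *Fosl2* by 2.93 ± 0.65 and 3.27 ± 0.61. In UUO all 5 lay under 2 times their level in empty droplets, and *Ier3* lost its call without any 1 of 4 libraries (adjusted p of up to 0.175). Of 33 stromal and developmental transcription factors, 7 rose and 6 fell in UIR and 9 rose in UUO. *Tcf21*, a factor of the interstitial stroma, was at 0 in the controls, 147, 136 and 260 CPM in UIR and 281, 189 and 127 CPM in UUO, and rose at least 38.7-fold and 49.4-fold. *Prrx1*, of embryonic mesenchyme, rose at least 17.9-fold and 12.7-fold, *Hoxd11* at least 19.6-fold and 18.3-fold, *Hoxd10* with a ratio of 13.1 (3.45 to 112) and 11.8 (3.11 to 99.5), and *Runx1* with a ratio of 28.4 (9.54 to 139) and 11.6 (3.82 to 57.2). The factors that fell in UIR were *Gata3*, *Tbx3*, *Nr2f1*, *Twist1*, *Sox13* and *Zeb1*. Of the cell cycle list only 2 genes could be tested, both inhibitors: *Cdkn1a* rose by 2.79 ± 0.73 in UIR and *Cdkn1c* by 1.92 ± 0.44 in UUO. Both calls were lost without N1 and N2 together (adjusted p = 0.123 and 0.1), without AN1 and AN2 together or with at most 15% mitochondrial UMIs. Calls lost in 1 to 3 other settings were those of *Jun* in UIR (adjusted p = 0.0504, and 0.0743 in members with at least 3 mesangial markers) and, in UUO, of *Jun*, *Egr1*, *Hoxd10* and *Runx1* (adjusted p of up to 0.0938, 0.0726, 0.111 and 0.066).

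**Figure D4:**
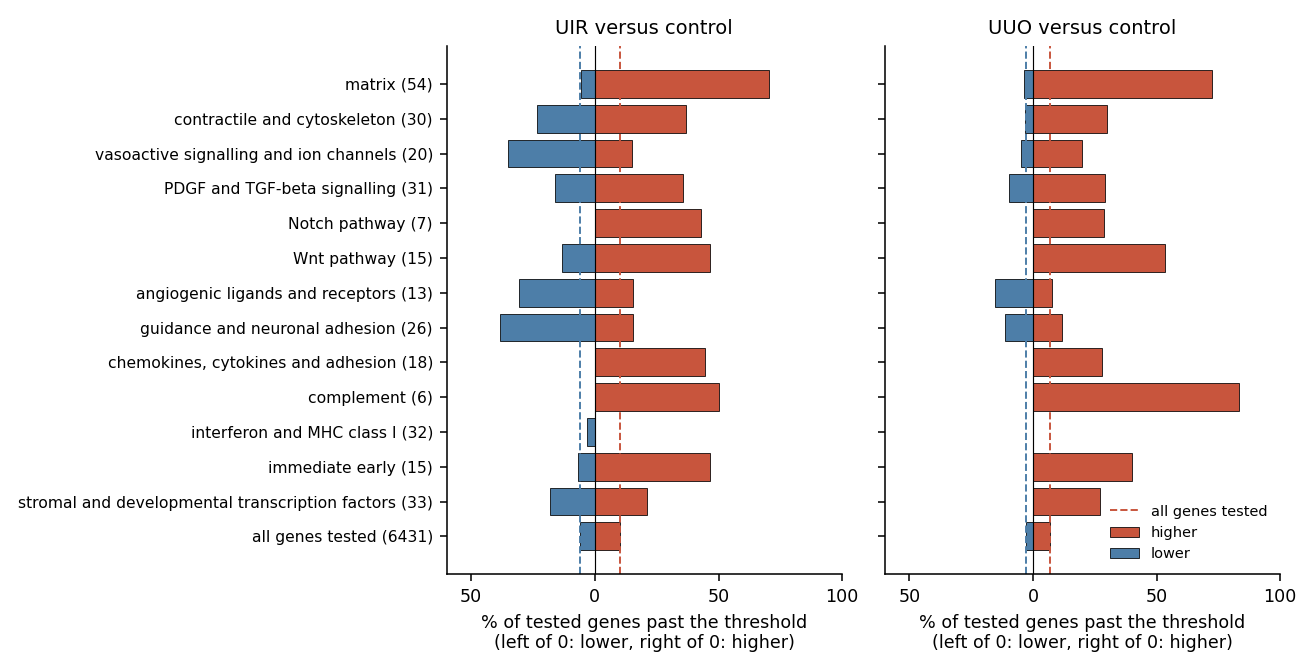
Percent of the tested genes of each list that were higher (right of 0) or lower (left of 0) in UIR and UUO than in control members at an adjusted p under 0.05 (edgeR), with dashed lines for all 6431 genes and the number tested in brackets. Matrix genes were higher for 38 of 54 in UIR and 39 of 54 in UUO, and guidance, vasoactive and angiogenic genes have the longest bars of lower calls in UIR.

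Outside the lists, the largest rises in UIR took in *Map1b*, a microtubule protein, at least 93.6-fold, the membrane protein *Emp1* at least 48.9-fold and *Nbl1*, a BMP antagonist, at least 48.2-fold. In UUO they took in *Smoc2*, a matricellular gene, at least 63.9-fold, the peptide hormone gene *Cck* at least 48.7-fold and *Nbl1* at least 49.7-fold. Among the lower genes, *Cpne4*, a copine of calcium signalling, was 124, 132, 81.9, 43 and 91.2 CPM in controls, 8.75, 2.06 and 8.85 CPM in UIR and 2.55, 14.4 and 11.1 CPM in UUO, and fell by 3.74 ± 0.53 (adjusted p = 9.92e-05) and 3.46 ± 0.48 (adjusted p = 0.000135). *Ehd3*, of membrane recycling (chr17:73804134-73832094, plus strand), was 453, 539, 400, 593 and 355 CPM in controls, 105, 22.6 and 32.5 CPM in UIR and 61.1, 96.7 and 152 CPM in UUO. It fell by 3.04 ± 0.40 (adjusted p = 4.85e-05) and 2.25 ± 0.37 (adjusted p = 0.000588). Both genes kept every injured library below every control, which the choice of genes outside the lists required. No overlap between libraries was found for 18.6% of all tested genes in UIR and 15.1% in UUO. *Ehd3* is itself one of the 7 endothelial markers, and the other 6 summed to 387 to 506 CPM in controls, against 224 to 297 in UIR and 236 to 284 in UUO.

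*Nt5e*, the ecto-5′-nucleotidase CD73 that makes adenosine (chr9:88327197-88372092, plus strand), was 522, 387, 410, 644 and 395 CPM in controls, 142, 16.5 and 14.8 CPM in UIR and 86.6, 146 and 224 CPM in UUO. It fell by 2.93 ± 0.52 (adjusted p = 0.000663) and by 1.70 ± 0.47 (adjusted p = 0.0261). The protocadherin *Pcdh12* fell by 2.88 ± 0.39 and 2.03 ± 0.36, and the ATP-gated channel *P2rx1* by 3.54 ± 0.57 and 1.68 ± 0.46. The chemokine *Cxcl13* fell by 2.77 ± 0.78 and 2.88 ± 0.76. *Gm26771*, *Bend7* and *Exoc3l2* fell in UIR by 2.94 ± 0.59, 2.79 ± 0.65 and 2.73 ± 0.66, and *Enho* and *Fam212a* fell in UUO by 1.73 ± 0.36 and 1.70 ± 0.44. The UUO calls of *Nt5e*, *P2rx1* and *Fam212a* and both calls of *Cxcl13* were lost without 1 library (adjusted p of up to 0.125, 0.121, 0.0827, 0.0841 and 0.114).

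The members that carried most mesangial markers were then taken alone, an alternative added after the data were seen. At least 4 of the 6 mesangial markers were found in 104 control, 52 UIR and 140 UUO members. The UIR libraries held 43, 4 and 5 such members, so that UIR here rests mostly on 1 library and is described here without a test. All 3 groups were in the fit, for which the limit of 10 members per library was lowered to 4. The small UIR pools thus share in the estimate of spread behind the UUO tests. Of 3149 genes tested, 34 were higher (1.08%) and 45 lower (1.43%) in UUO, and 60 of these 79 (2.51% of genes) were also called in the same direction over all members. *Col1a1* had a UMI in 0 of 104 control, 1 of 52 UIR and 8 of 140 UUO members with 4 markers, but in 63 of 90 UIR (70%) and 62 of 76 UUO members (81.6%) with fewer than 3.

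Other injury genes were raised in mesangial-marked UUO members as well. *Crip1* rose by 3.20 ± 0.30 (adjusted p = 9.21e-10), from 77.2 ± 38.6 to 716 ± 122 CPM, and *Mgp* by 3.22 ± 0.30 (adjusted p = 9.21e-10), from 247 ± 44.9 to 2328 ± 1279 CPM. The UUO level of *Crip1* was near that of UUO empty droplets here too. *Acta2* rose by 3.04 ± 0.47 (adjusted p = 2.99e-05), from 21.4 ± 33.8 to 194 ± 28.1 CPM. *Serping1* did not pass (0.71, adjusted p = 0.102). Of the lower genes, *Ehd3* fell by 1.69, *Cpne4* by 2.53, *Adamts1* by 1.30, *Pcdh12* by 1.31, *Nt5e* by 0.86 and *Angpt2* by 0.88 (adjusted p = 1.93e-05, 0.000809, 0.000646, 0.00188, 0.0342 and 0.0431). *P2rx1* did not pass (−0.74, adjusted p = 0.146). Of 26 named calls in UUO that could be tested in these members, 10 were lost (adjusted p of up to 0.599).

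In members with at least 3 markers, 11 of 55 named calls in UIR and 30 of 50 in UUO were lost. A lost call missed the threshold on adjusted p, which does not show that the change was absent. Every lost call in UUO kept its direction, and in UIR only *Rgs5* turned (−0.17). Of the lost calls, 3 in UIR and 16 in UUO were lost neither without 1 library nor in the other settings. They were *Tek*, *Exoc3l2* and *Ptn* in UIR (adjusted p of up to 0.173), the last being one of the markers that chose the members. In UUO they were the matrix genes *Timp1* and *Col6a1*, the signalling genes *Ltbp2*, *Inhba*, *Ctgf*, *Wnt4*, *Sfrp1* and *Dkk3*, and *Sema3d*, *Dpysl3*, *Cxcl14*, *Klf4*, *Tcf21*, *Cck*, *Actn1* and *Rgs5* (adjusted p of up to 0.229). Their log2 fold changes kept their direction, with *Ctgf* at −1.15, *Wnt4* at 3.66, *Sfrp1* at 3.19 and *Dpysl3* at 2.25. Those of *Ctgf*, *Dpysl3*, *Actn1* and *Rgs5* were smaller in size than over all members. So were those of *Wnt4* and *Sfrp1*, which over all members were 3.61 and 3.09 CPM in controls and 167 and 218 CPM in UUO. Each had 2 UMIs in control members, so their sizes are loosely set. *Timp1*, *Col6a1* and *Ltbp2* were at 7.23, 6.05 and 6.63, sizes that are loosely set because control members had 0 UMIs of them.

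The UIR values of these pools are given by library, in the order of the unnumbered library, UIR1 and UIR2, without a test. *Angpt2* was 178, 386 and 374 CPM against 203 to 268 CPM in mesangial-marked control members, and *Cpne4* was 22.2, 64.3 and 160 CPM against 43.0 to 134 CPM. Neither was lower in every UIR library. The UIR libraries held 45 UMIs of *Angpt2* and 8 of *Cpne4* in these pools. The UIR to control ratio of pooled levels was 0.893 (95% interval 0.623 to 1.26) for *Angpt2* and 0.365 (0.151 to 0.767) for *Cpne4*. These intervals cover counting error only. Over all members the means were 52.1 CPM in UIR against 218 in controls for *Angpt2*, and 6.55 against 94.4 for *Cpne4*. Why the pools differed from all members was not tested. *Adamts1* was 278, 257 and 747 CPM against 653 to 981 CPM and *Pcdh12* 161, 386 and 267 CPM against 300 to 454 CPM, each overlapping the controls in 1 library. *Ehd3*, at 239, 321 and 427 CPM against 433 to 593 CPM, and *Nt5e*, at 339, 129 and 267 CPM against 390 to 644 CPM, lay below the controls. *Crip1* was 311, 129 and 53.4 CPM against 19.0 to 112 CPM, *Mgp* was 945, 771 and 53.4 CPM against 203 to 318 CPM and *Acta2* was 61.1, 0 and 0 CPM against 0 to 77.3 CPM. No UIR library was above the controls in *Acta2*, and UIR2 was above them in none of the 3 genes. The pools are too small to show absence, since 1 UMI in UIR2 was 53.4 CPM and *Acta2* had 11 UMIs over all UIR libraries.

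The models were compared directly with each other. Over all members, 1 gene was higher and 1 lower in UUO than in UIR of 6431 tested (0.0155% each, 0.0311% in all), with 581 at an unadjusted p under 0.05, and DESeq2 called 3, *Kap*, *S100g* and *Mmp11*. The higher gene, and the only one called by edgeR on the 14 lists, was *Ren1*, renin, the enzyme that starts the angiotensin cascade (chr1:133350510-133360325, plus strand). *Ren1* had 0 UMIs in the 5 control libraries, was 65.6, 0 and 0 CPM in UIR and was 753, 1860 and 601 CPM in UUO. All UUO libraries lay above all others, and the UIR value came from 1 barcode of the unnumbered library. *Ren1* was higher in UUO than in UIR by 5.43 ± 0.81 (adjusted p = 0.0405), with a ratio of pooled levels of 44.8 (31.3 to 66.6), and at least 236-fold higher than in controls (adjusted p = 0.000126). The lower gene was *Kap*, an androgen-regulated gene of proximal tubule, at 366 ± 246 CPM in UIR and 34.9 ± 20.1 in UUO members against 5475 and 1593 CPM in empty droplets, and it was named after its values were seen. Leaving out UIR1, UIR2 or UUO1 ended the *Ren1* call against UIR (adjusted p = 0.0576, 0.0711 and 0.145), and DESeq2 did not make it (adjusted p = 0.832). Without the unnumbered UIR library 136 genes were called between the models and without the unnumbered UUO library 70.

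Renin was carried by a minority of the UUO members. It had a UMI in 30 of 237 (12.7%), against 1.35% of UUO endothelial barcodes, at median depths per library of 4194 to 5928 and 4794 to 6232 UMIs, and in 0 of 118 control members (up to 2.54% with a UMI). *Akr1b7*, an aldo-keto reductase that marks renin cells, rose in UUO by 2.65 ± 0.49 (adjusted p = 0.00178), from 0 to 40.5 CPM in controls to 95.5, 69.9 and 127 CPM. Members with 4 or more mesangial markers carried *Ren1* too, at 863, 4040 and 674 CPM in the UUO libraries against 0 in controls and UIR. These levels came from few barcodes, since *Ren1* had a UMI in 8 of 64, 8 of 37 and 6 of 39 such members, and a single barcode held 239 of 268, 401 of 903 and 68 of 150 of its UMIs. *Ren1* in these pools rose at least 342-fold over controls (adjusted p = 4.03e-11), and *Akr1b7* rose by 3.87 ± 0.48 over controls (adjusted p = 7.1e-07). The smooth muscle gate, which holds the arteriolar wall, had the highest *Ren1* level of the groups of cells compared, at 3235 ± 3410 CPM in controls, 1124 ± 283 in UIR and 10280 ± 4583 in UUO, and empty droplets had 6.14, 5.73 and 62.8 CPM.

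**Figure D5:**
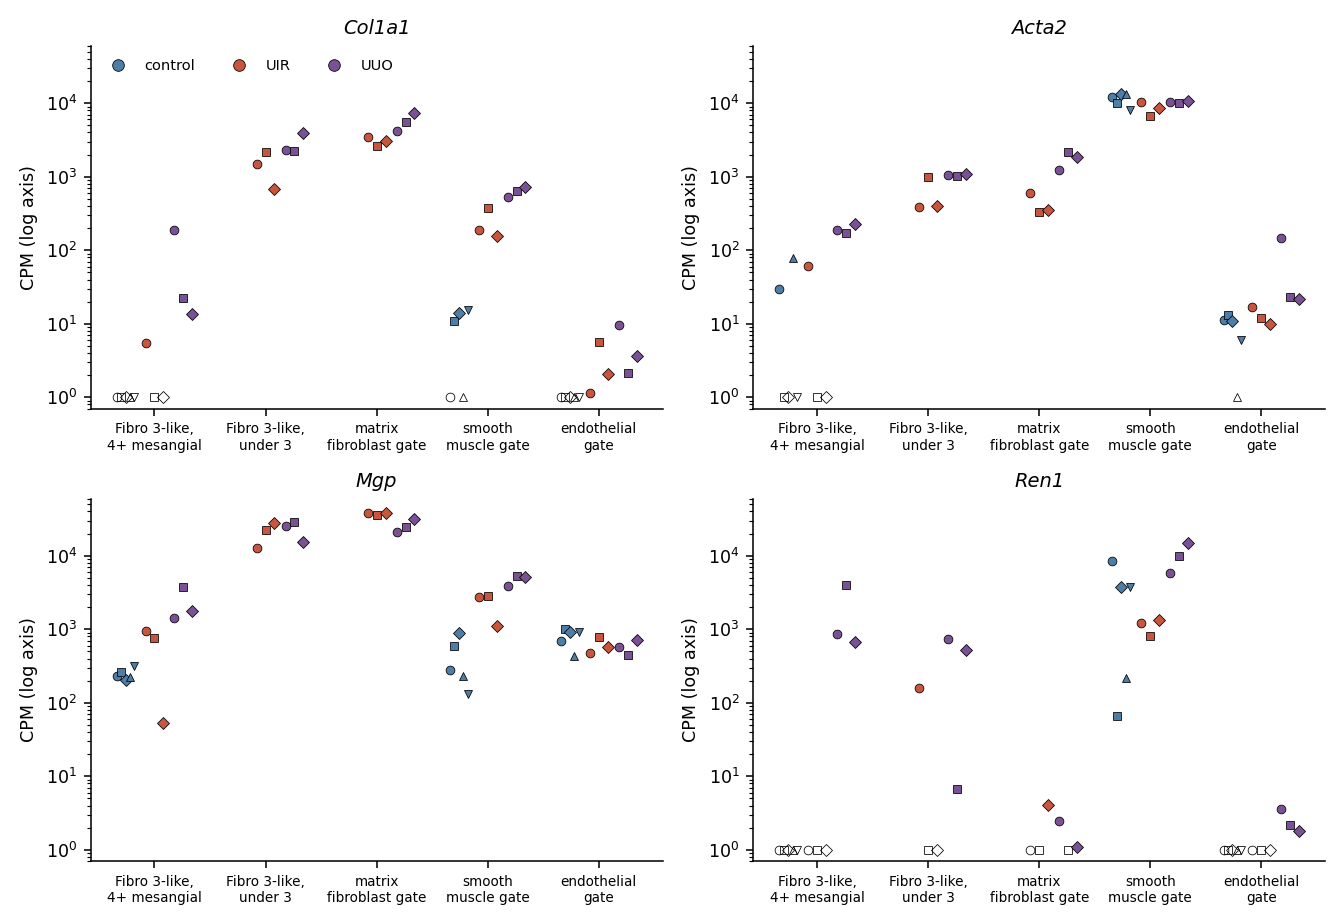
Level of *Col1a1*, *Acta2*, *Mgp* and *Ren1* in CPM on a log axis, in Fibro 3-like barcodes with at least 4 mesangial markers, in those with under 3, and in the matrix, smooth muscle and endothelial gates, with 1 point per library and open symbols for libraries under 1 CPM. *Col1a1* is low in mesangial-marked members and high in the others and in the matrix gate, and *Ren1* in UUO is highest in the smooth muscle gate.

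The members with fewer than 3 mesangial markers lay nearer to the matrix gate than the mesangial-marked ones did, a comparison of groups of cells that the rule shapes and that is given without a test. Their *Col1a1* was 1455 ± 737 CPM in UIR and 2815 ± 942 in UUO, against 3036 ± 426 and 5693 ± 1515 in the matrix gate and 1.85 ± 3.21 and 75.3 ± 99.5 in the mesangial-marked members. The sum of 7 interstitial fibroblast markers over all members moved in the same way, from 704 to 1280 CPM in controls to 4527 to 8045 in UIR and 5212 to 6116 in UUO, while the sum of 8 mesangial markers went from 9716 to 14347 down to 2470 to 6874 and 4845 to 8230. The mesangial sum includes *Itga8* and *Serpine2*, both positive genes of the rule, so the selection shapes it. Their means in control, UIR and UUO members were 1439, 261 and 627 CPM for *Itga8* and 2080, 1339 and 1750 CPM for *Serpine2*. How far the shift in these marker sums shaped the fold changes over all members was not tested beyond the values in mesangial-marked members given above.

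Whether the changes were shared with other cells was tested against endothelial barcodes of the same libraries, with the library as a block. The UIR response of Fibro 3-like members differed from the endothelial one for 747 of 9641 genes (7.75%), 502 with the higher value in the members (5.21%) and 245 with the lower (2.54%). The UUO response differed for 430 genes (4.46%), 297 of them higher (3.08%) and 133 lower (1.38%). *Crip1* rose in the members and was lower in injured endothelium (828 CPM in UIR and 668 in UUO against 1080 in controls), a difference in response of 3.50 ± 0.24 in UIR (adjusted p = 2.62e-08) and 4.06 ± 0.24 in UUO (adjusted p = 4.63e-09). In UUO the level of *Crip1* in members and in endothelium was near that of empty droplets. *Ltbp4* differed by 5.18 ± 0.51 and 5.16 ± 0.51 and *Jun* by 2.25 ± 0.35 and 2.03 ± 0.35. *Tgfb2*, lower in UUO endothelium (42.4 against 144 CPM), differed by 4.08 ± 0.58. Of the named genes in this model, 27 of 71 in UIR and 41 of 68 in UUO did not pass. Among these were *Serping1* (adjusted p = 0.0749 and 0.429), *Rgs5* (adjusted p = 0.0736 and 0.235) and *Cx3cl1* (adjusted p = 0.31 and 0.672) in both models, and *Acta2* and *Tagln* in UUO (adjusted p = 0.297 and 0.0918). *Col1a1* and *Ren1*, with 0 UMIs in the controls of both gates, could not be fitted usefully and are counted among those that did not pass.

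Of the lower genes, *Angpt2* fell in the members while endothelial barcodes went from 10.4 CPM in controls to 27.8 in UIR and 104 in UUO, a difference of −3.26 ± 0.36 (adjusted p = 1.69e-05) and −4.61 ± 0.33 (adjusted p = 3.93e-08). *Ehd3*, which endothelial barcodes also carried, at 1097 CPM in controls, 813 in UIR and 929 in UUO, differed by −2.66 ± 0.36 and −1.96 ± 0.32. *Pcdh12* differed by −3.01 ± 0.37 and −2.42 ± 0.34. *Adamts1* differed in UUO by −1.83 ± 0.26, and in UIR *Nrp1* differed by −1.19 ± 0.24 and *Nt5e* by −3.68 ± 0.82, the last lost without UIR1 (adjusted p = 0.0577).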

How the data were processed

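Single-cell 3′ RNA sequencing was performed on 11 mouse kidney libraries, and the deposited matrices hold raw UMI counts per gene and barcode, without any cell annotation in the files used here. Per the labels, the authors aligned reads to mm10, and the submitters' processing notes name Cell Ranger 3.1.0, whereas the methods of the study name a later release. The removal of ambient RNA and doublets described there is not part of the deposited counts, and no doublet caller was run, so members may include droplets with 2 cells.

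Barcodes were filtered and called Fibro 3-like with the rule given in the report, and matrix, smooth muscle and endothelial gates were set in the same way. The matrix gate needed 3 of the 6 matrix fibroblast genes, the smooth muscle gate 2 of the 5 smooth muscle genes, and the endothelial gate both *Pecam1* and *Cdh5* without *Ptprc*. The members and the gene lists were chosen with earlier results of these data known. Counts of members were summed per library and tested with the edgeR 4.0.16 quasi-likelihood test (TMM scaling, low counts removed with filterByExpr, all 3 groups in 1 model), in R 4.3.3. The genes of the rule were left out before the Benjamini-Hochberg adjustment, and an adjusted p under 0.05 was called. DESeq2 1.42.0 was an alternative. CPM are counts per 1000000 UMIs of the summed members. Responses were compared with those of endothelial barcodes in a model with library as a block. Shares were compared with exact permutation tests over libraries. The scripts were tested on simulated data.

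Named genes were up to 10 per direction and comparison with the largest log2 fold change, at 50 CPM or more in the higher group, without overlap of libraries and at 2 times or more the empty droplets (barcode ranks 45000 to 90000), up to 5 called genes per list, the rule genes, marker genes and the 25 leading genes. Some genes that met this rule are not reported here. Genes whose control members had 0 UMIs are given as bounds, with the controls at 3 UMIs over the group, and those with 1 to 3 as ratios of pooled levels with exact 95% intervals. Fold changes are on the log2 scale of the model. Alternatives were other filters on barcodes, cells and genes, other scaling, other denominators, and leaving out each library or control series. Coordinates are from GENCODE vM21 on GRCm38. Same-numbered UIR and UUO libraries had correlations of 0.0747, 0.159 and -0.0451 in their deviations from the group means over 6431 genes, so the numbers were not taken as pairs.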

Additional observations from a re-analysis of the deposited data

Results flagged for a closer look

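In single control libraries, some genes of Fibro 3-like members lay far from the other 4 by Dixon's test, which flags about 1 in 20 groups by chance. These were *Adamts1* in N1 (954 CPM), *Cx3cl1* (103 CPM), *Gja5* (281 CPM), *Cdkn1a* (41.2 CPM) and *Hopx* (927 CPM) in Ctrl, *Jun* in N2 (67.5 CPM), *Cxcl13* in AN1 (412 CPM) and *Trpc4* in AN2 (30.4 CPM). Others were single high values where the other control libraries held few or no UMIs, namely *Tgfbi* in Ctrl (6.86 CPM), *Hoxd10* in Ctrl (13.7 CPM), *Ltbp1* and *Tnfsf13b* in N2 (4.82 CPM each), *Nrip2* in N2 (9.64 CPM), *Slit2* in N1 (9.45 CPM) and *Clu* in AN1 (25.8 CPM).

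Effects that differed between groups by a test of the difference were the response of the members against that of endothelial barcodes, for 747 genes in UIR and 430 in UUO. Among the named genes the log2 difference in response was 3.50 in UIR and 4.06 in UUO for *Crip1*, 5.18 and 5.16 for *Ltbp4* and 2.25 and 2.03 for *Jun*, and 4.08 in UUO for *Tgfb2*. It was below 0 for *Angpt2* (−3.26 in UIR and −4.61 in UUO), *Ehd3* (−2.66 and −1.96) and *Pcdh12* (−3.01 and −2.42), for *Nrp1* (−1.19) and *Nt5e* (−3.68) in UIR, and for *Adamts1* (−1.83) in UUO. Between the injury models, *Ren1* differed by 5.43 on the log2 scale.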

How the results depend on the processing

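Shares of members depended on the denominator. The UIR minus control difference in percentage points, 0.0342 as reported, turned below 0 with at least 4 positive genes (−0.142), with 2000 UMIs (−0.0106), with at most 15% mitochondrial UMIs (−0.706), of barcodes with fewer than 4 proximal tubule markers (−2.77), of stromal barcodes (−37.4), of barcodes with at most 2% proximal tubule marker UMIs (−2.20) and without the AN controls (−0.104). Leaving out 1 library gave −0.309 to 0.301, below 0 without the unnumbered UIR library, Ctrl (−0.0694) or AN2 (−0.0494). The UUO minus control difference of 0.901 turned to −2.04, −26.8 and −1.52 for the 3 other denominators in that order, was 1.39 (exact permutation p = 0.0357, adjusted 0.107 over 3 comparisons) without members carrying 4 proximal tubule or 2 podocyte markers, was 0.0514 with at most 15% mitochondrial UMIs, and ran from 0.458 to 1.24 with 1 library left out. UUO minus UIR ran from 0.423 to 1.21 with 1 library left out and was 1.28 without members carrying tubule or podocyte markers and 10.6 of stromal barcodes. The number of genes called was 1628 in UIR and 1233 in UUO without a filter on low counts and 599 and 389 without members carrying tubule or podocyte markers. It was 427 and 80 in members with 3 mesangial markers and 1 and 79 in those with 4, where UIR rests mostly on 1 library. It was 672 and 306 without the N controls. In UUO it was 362 with at least 20 members per library, 366 with at most 15% mitochondrial UMIs and 376 without the AN controls. Leaving out 1 library gave 726 to 1230 genes in UIR and 426 to 674 in UUO. Between UUO and UIR 228 genes were called without the filter, 0 with at least 20 members or at most 15% mitochondrial UMIs and 8 with 4 positive genes. There were 6 without members over 2% tubular marker UMIs and 5 without members carrying tubule or podocyte markers. In members with 4 mesangial markers 8 were called, with UIR again resting mostly on 1 library. With the UIR and UUO libraries alone, 0 genes were called with the replicate block and 0 without it, and *Ren1* had an adjusted p of 0.286 with the block. Leaving out 1 library gave 0 to 136 genes, with 136 without the unnumbered UIR library, 1 without UIR1, 6 without UIR2, 70 without the unnumbered UUO library and 0 without UUO1. The response differed from that of endothelium for 351 genes in UIR and 188 in UUO with at least 20 members, for 700 in UUO without the filter, and for 433 to 959 in UIR and 256 to 447 in UUO with 1 library left out, lowest without UIR1 (433) in UIR and without Ctrl (256), UUO1 (282) or the unnumbered UUO library (285) in UUO. Of 177 named results, 82 had the same call and direction under every alternative run. Directions turned for *Rgs5* in UIR (−0.17) and *Piezo2* (0.44 in UIR and 0.16 in UUO) and *Hopx* in UUO (0.0726) in members with 3 mesangial markers. They turned in members with 4 for *Gja5* (0.13), *Gata3* (0.19) and *Hopx* (0.0897) in UIR and for *Gata3* (0.12), *Hopx* (0.28) and *Piezo2* (0.15) in UUO, where these markers, other than *Gja5*, chose the members. *Mef2c* in UIR, never called, turned to 0.0311 without the filter, 0.17 with 4 positive genes, 0.0211 without members carrying tubule or podocyte markers, 0.47 and 0.27 in members with 3 and 4 mesangial markers, and above 0 without UIR2, N1 or the unnumbered UIR library, with a range of −0.25 to 0.10 when 1 library was left out. The causes were not tested. Depth limits genes with few UMIs in the 118 control members, for which only bounds or wide intervals can be given.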
